A study of Homo sapiens with 6 samples.

Results

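RNA45SN3, a copy of the gene for the 45S precursor of ribosomal RNA (rRNA), was set beside POLR1A, POLR1B, UBTF, RRN3, FBL, NCL, NPM1, NOP56 and DKC1, which encode proteins of RNA polymerase I (Pol I) transcription and of the nucleolus. These 10 genes were taken by name from the 25528 gene symbols of the deposited table. RNA45SN3 was chosen by its TPM values in these same samples, which were higher after doxycycline (DOX), so its values are given here as a description, with no test. The other 9 genes were chosen for their roles.

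The cells were DU-145/tet-XISTshRNA cells, from an established human prostate cancer line that carries a DOX-inducible short hairpin RNA against the noncoding RNA XIST. RNA-seq was available for 3 vehicle samples (0.1% DMSO) and for 3 samples that received 500 ng/ml DOX over a week, and the question was which genes change when XIST is targeted. Both groups carry the same hairpin, and samples given DOX without it were not analysed here, so that the hairpin and DOX itself cannot be told apart. The labels say that cells were cultured in triplicates, and the study's methods state for its experiments in general that biological replicates were independent. The p-values measure the spread between these samples.

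Ribosomes are built in the nucleolus around arrays of rRNA genes. Pol I, helped by the initiation factor RRN3 and the chromatin-bound factor UBTF, copies each gene into a long 45S precursor, which is cut and modified into the 18S, 5.8S and 28S rRNAs. Small nucleolar ribonucleoproteins (snoRNPs) that hold FBL, NOP56 or DKC1 place the modifications, and NCL and NPM1 are abundant nucleolar proteins that act in processing and assembly. The external and internal transcribed spacers (ETS and ITS) are removed in this process. Only a small part of rRNA precursor is polyadenylated, and the libraries were made with a stranded mRNA kit.

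RNA45SN3 lies at chr21:8389035-8402343 on the plus strand of GRCh38 (RefSeq coordinates) and spans 13309 bases, of which 53.2% are mature rRNA and 46.8% are spacer. The reference holds 4 further copies, which aligned to RNA45SN3 with 99.7% (RNA45SN1), 99.8% (RNA45SN2), 99.7% (RNA45SN4) and 99.8% (RNA45SN5) identity. The window from 250 bases before to 50 bases after the start was the same in all 5 copies, with 0 differences. It is shown because reads or initiation cannot be assigned to a copy from this part of the gene. The RNA45SN3 window, chr21:8388785-8389084, reads as follows, with the transcribed bases in capitals.
RNA45SN3 promoter: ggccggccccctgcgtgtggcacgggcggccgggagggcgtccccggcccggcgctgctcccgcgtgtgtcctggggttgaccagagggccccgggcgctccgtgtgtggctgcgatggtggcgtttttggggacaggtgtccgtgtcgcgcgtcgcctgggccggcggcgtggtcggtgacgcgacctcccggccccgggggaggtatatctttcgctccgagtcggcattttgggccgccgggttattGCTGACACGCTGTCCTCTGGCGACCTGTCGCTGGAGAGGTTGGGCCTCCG

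Of the windows of 100 bases along RNA45SN3, 90.7% occur unchanged in at least 1 other copy. This share was 100% in the 18S, ITS1 and 3′ ETS segments, 93.7% in 28S, 83.9% in ITS2 and 79.0% in the 5′ ETS. The longest stretch with no shared window covers bases 2881 to 3377 of the unit, in the 5′ ETS. A stretch inside 28S, bases 8934 to 8999, holds 8 positions at which RNA45SN3 differs from the 4 other copies, which are identical to each other there. It is shown because it is among the few places where RNA45SN3 has letters of its own. The capitals mark the differing bases of RNA45SN3 (chr21:8397968-8398033) and RNA45SN2 (chr21:8214934-8214999), both on the plus strand.
RNA45SN3 28S stretch: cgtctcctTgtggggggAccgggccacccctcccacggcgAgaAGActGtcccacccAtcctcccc
RNA45SN2 28S stretch: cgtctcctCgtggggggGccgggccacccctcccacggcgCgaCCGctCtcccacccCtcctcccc
Counted from 1 at the first base of the RNA45SN3 unit, and with the RNA45SN3 base first, the substitutions are T8942C, A8951G, A8974C, A8977C, G8978C, A8979G, G8982C and A8991C. How reads that match several copies were assigned is not given in the sources used here, so a value of RNA45SN3 may hold reads of other copies.

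**Figure D1:**
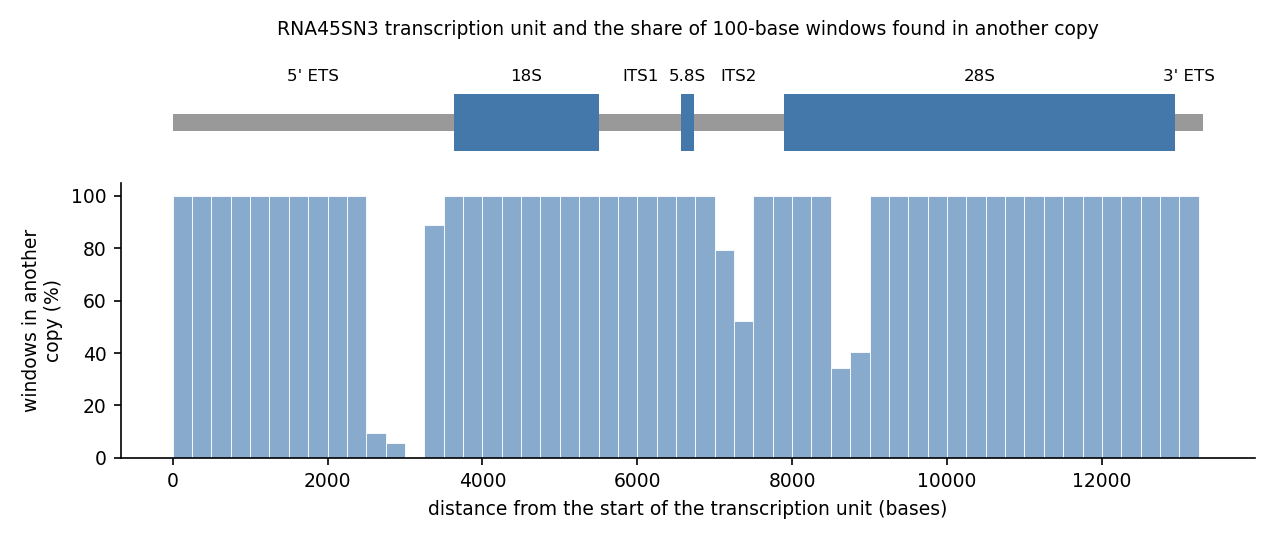
Map of the RNA45SN3 transcription unit (top; blue, mature rRNA; grey, spacers) and, for each bin of 250 bases from its start (x axis, bases), the percentage of its 100-base windows that occur in another copy (y axis). The bars are at 100% except in 3 places, in the 5′ ETS, in ITS2 and in 28S.

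The values are transcripts per 1000000 transcripts (TPM), which divide reads by gene length and set each sample to the same total. The RNA45SN3 level was 2.07, 0.647 and 0.214 TPM in vehicle replicates 1, 2 and 3. After DOX it was 2.90, 5.19 and 3.94 TPM. All DOX samples were above all vehicle samples, and the vehicle samples differed by 9.71 times among themselves against 1.79 times for DOX. The DOX mean of 4.01 ± 1.15 TPM was 4.10 times the vehicle mean of 0.978 ± 0.973 TPM (SD, n = 3). On the log2(TPM + 1) scale used for all genes, which understates changes of low genes, DOX was higher by 1.43. Genes with a mean of at least 1 TPM over the 6 samples were tested (11672 genes), and RNA45SN3 reached this minimum through the DOX group only. In the same samples 0.223% of the genes tested had all DOX samples above all vehicle samples, and nothing is read from this share, since the values chose the gene. These are bulk samples, in which fewer cells with a transcript and less of it per cell cannot be told apart.

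The reads behind these values were recovered from the deposited tables. They were 663, 228 and 16 reads of RNA45SN3 with vehicle and 5571, 1957 and 1484 with DOX. The exact Poisson 95% interval for the 16 reads of vehicle replicate 3 is 9.15 to 26.0, which covers counting error only. That library was the smallest, with 5452783 reads counted on genes, and DOX replicate 1 was the largest, with 64575038. Per 1000000 counted reads, RNA45SN3 had 39.7, 11.2 and 2.93 reads with vehicle and 86.3, 103 and 84.8 with DOX. The lowest DOX sample was above the highest vehicle sample on this scale, and the 3 DOX samples lay within 1.22 times of each other. Divided by each sample's size factor, the means were 328 ± 346 reads with vehicle and 1643 ± 199 with DOX, a ratio of 5.01. Leaving out single samples gave log2 differences from 1.13 (without vehicle replicate 3) to 1.80 (without vehicle replicate 1). All these forms restate the values that chose the gene, so they are a description and no support for its direction.

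A second copy, RNA45SN2, was measured at much lower values. Of the 100-base windows of RNA45SN3, 81.3% occur unchanged in RNA45SN2. Its values thus cannot be taken as independent of those that chose RNA45SN3, and they are no support for them. RNA45SN2 had 0.214, 0.0462 and 0.0132 TPM with vehicle and 0.223, 0.312 and 0.30 TPM with DOX, with no overlap but a narrow gap between the highest vehicle and the lowest DOX sample. It stayed under the minimum of 1 TPM and was not tested. It had 139, 33 and 2 reads with vehicle and 869, 239 and 229 with DOX. The sample with most RNA45SN3 reads per 1000000 in the vehicle group, replicate 1, also had the highest RNA45SN2 value. RNA45SN3 had 4.77, 6.91 and 8 reads for each RNA45SN2 read with vehicle, and 6.41, 8.19 and 6.48 with DOX. These ratios overlapped between the groups, with means of 6.56 ± 1.64 and 7.03 ± 1.01 (SD, n = 3). The pair's TPM values cannot be compared per length, because the recovered gene length of RNA45SN2 was 2.03 times that of RNA45SN3, although the annotated spans are 13315 and 13309 bases.

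**Figure D2:**
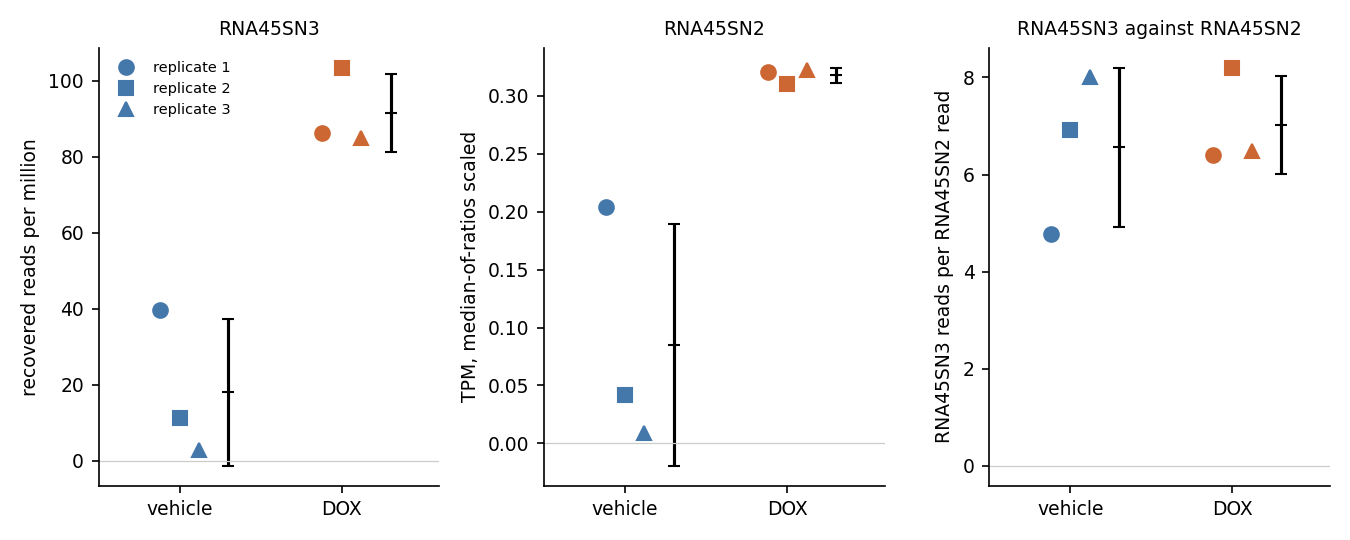
Per-sample values (points, shaped by replicate) with the mean and SD of 3 samples (black) for vehicle (blue) and DOX (orange): RNA45SN3 in recovered reads per 1000000, RNA45SN2 in scaled TPM, and RNA45SN3 reads per RNA45SN2 read (y axes). The DOX points lie above the vehicle points in the first 2 panels, and the groups overlap in the last, at 4.77 to 8 and 6.41 to 8.19.

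The other rRNA genes of the table were listed at 0 in all 6 samples. These were 2 further 45S copies (RNA45SN1 and RNA45SN5), 5 copies of 18S, 4 of 28S, 5 of 5.8S and 16 of 5S. The expression of RNA45SN4 was not analysed here. The mature 18S, 5.8S and 28S genes lie inside the 45S genes on the same strand, and the values do not show what was counted where genes overlap. A 0 in this table need not mean that a transcript was absent, since EIF4A1, which encodes a translation initiation factor used in all cells, was also listed at 0 in all 6 samples. XIST, the target of the hairpin, was listed at 0 in all 6 samples, so it gives no check of the labels.

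Mitochondrial rRNA is transcribed by another polymerase in another compartment and gives a comparison outside the nucleolus. RNR1, the 12S rRNA, had 26.9, 2.52 and 38.7 TPM with vehicle and 1.42, 45.1 and 36.5 TPM with DOX. It was low in 1 sample of each group, and the groups overlapped (log2 difference 0.03 ± 0.60 SE, adjusted p = 0.969, limma). RNR2, the 16S rRNA, was low in the same samples, vehicle replicate 2 and DOX replicate 1 (log2 difference -0.00069, adjusted p = 1.00, limma).

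POLR1A encodes the largest subunit of Pol I. It had 5.35, 5.26 and 6.93 TPM with vehicle and 3.92, 5.67 and 4.97 TPM with DOX, which overlapped (log2 difference -0.23 ± 0.23 SE, adjusted p = 0.471, limma). POLR1B, the second largest subunit, had 6.52, 7.87 and 9.20 TPM with vehicle and 4.10, 8.54 and 6.27 TPM with DOX (-0.31 ± 0.25, adjusted p = 0.365, limma). RRN3, which brings Pol I to the promoter, had 5.92, 7.29 and 7.81 TPM with vehicle and 3.51, 6.5 and 5.01 TPM with DOX (-0.44 ± 0.24, adjusted p = 0.204, limma). UBTF, which keeps rRNA genes in an open state, had 10.9, 10.3 and 11.4 TPM with vehicle and 8.03, 10.8 and 10.4 TPM with DOX (-0.16 ± 0.25, adjusted p = 0.648, limma). In these 4 genes DOX replicate 1 was the lowest sample, and DOX replicate 2 lay within the vehicle range.

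FBL, the methyltransferase of the box C/D snoRNPs, had 41.0, 39.99 and 41.3 TPM with vehicle and 37.5, 49 and 41.5 TPM with DOX. Its log2 difference was 0.06 ± 0.27 SE (adjusted p = 0.885, limma), the only one of the 9 above 0. NOP56, a scaffold of the same particles, had 17.4, 15.8 and 24.5 TPM with vehicle and 12.4, 22.0 and 15.9 TPM with DOX (-0.20 ± 0.27, adjusted p = 0.591, limma). DKC1, the pseudouridine synthase of the box H/ACA snoRNPs, had 11.3, 12 and 14.1 TPM with vehicle and 6.94, 14.3 and 10.2 TPM with DOX (-0.28 ± 0.26, adjusted p = 0.445, limma). For both, the highest and the lowest DOX sample lay on opposite sides of the vehicle mean.

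NCL, which binds the precursor and acts in its transcription and processing, had 114, 121 and 158 TPM with vehicle and 59.2, 141 and 82.9 TPM with DOX. Its log2 difference was -0.55 ± 0.29 SE (adjusted p = 0.194, limma), the lowest of the 9. DOX replicates 1 and 3 were under all vehicle samples and DOX replicate 2 was not. Without DOX replicate 2 the difference was -0.88 and passed the test (adjusted p = 0.0380, limma), beside 20.2% of all genes called lower in that fit. NPM1, a chaperone of ribosome assembly, had 210, 267 and 318 TPM with vehicle and 129, 283 and 213 TPM with DOX (-0.40 ± 0.28, adjusted p = 0.315, limma).

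Thus 0 of the 9 genes passed the test of an adjusted p under 0.05 with a fold over 1.5 in either direction, and 0 did at an unadjusted p under 0.05 with that fold, against 19.0% of all genes lower and 0.12% higher. Over all 11672 genes, 348 were called lower, or 2.98%, and 3 were called higher, or 0.0257%. A replicate block gave 2217 lower (19.0%) and 15 higher (0.129%) among all genes, and still 0 of the 9. In 0 of the 9 did all DOX samples lie below all vehicle samples, against 30.7% of all genes tested. DOX replicate 1 was the lowest of the 6 samples for 9 of 9 genes, and vehicle replicate 3 was the highest for 7 and DOX replicate 2 for 2. Together, 5 small RNAs (RN7SK, RPPH1 and the RN7SL genes 1 to 3) held 82.6% of the TPM of DOX replicate 1 and 67.5% of that of vehicle replicate 3, the extremes of the 6 samples, which leaves correspondingly less or more TPM to all other genes.

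**Figure D3:**
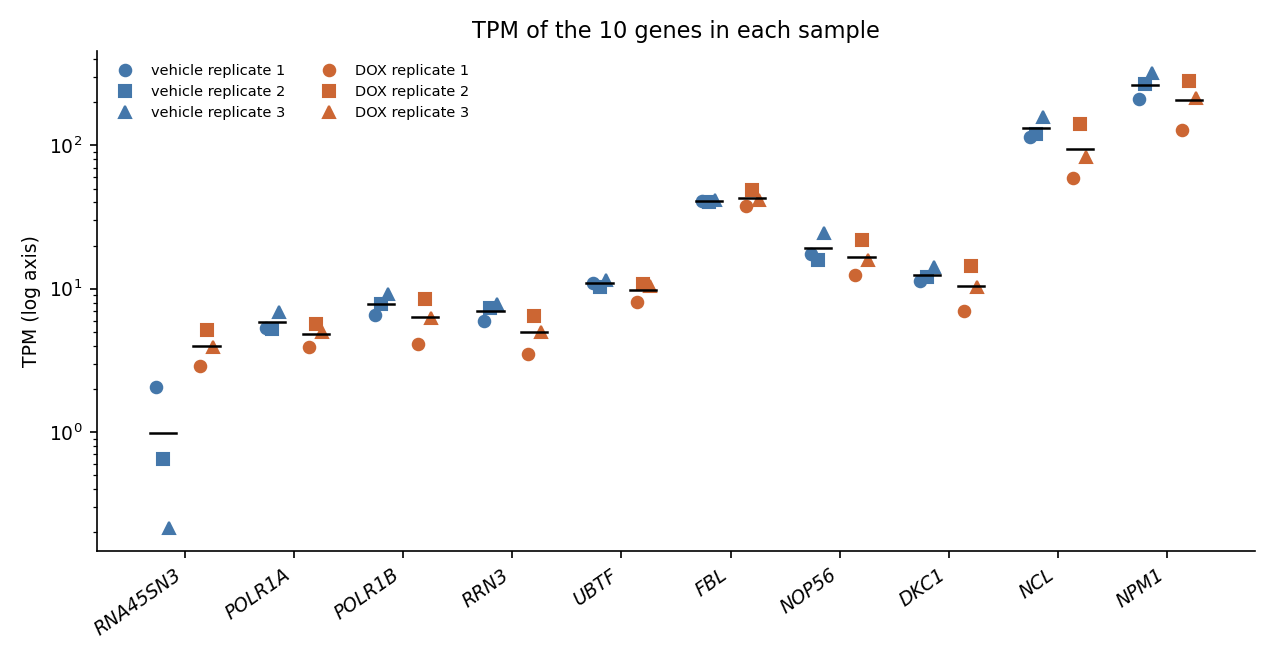
TPM (y axis, log scale) of the 10 genes (x axis) in the vehicle (blue) and DOX (orange) samples, with a shape for each replicate and a black line for the mean of 3. The groups are apart for RNA45SN3 and overlap for the other 9, and DOX replicate 1 is the lowest sample in each of those 9.

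The direction of most of these differences depended on the scaling. In TPM, 8 of the 9 differences were below 0, beside 10867 of all 11672 genes tested. The median of the 9 was -0.28, beside -0.35 for all genes. When each sample was instead scaled by the median of its gene ratios, the median of all genes was 0.02 and that of the 9 was 0.13. Then 2 of 9 were below 0 (RRN3 at -0.06 and NCL at -0.11), beside 5529 of all genes tested. On this scale FBL was 39.0, 36.0 and 29.3 with vehicle and 54.1, 48.7 and 44.5 with DOX, a log2 difference of 0.49 ± 0.14 SE (adjusted p = 0.280, limma). UBTF was 10.4, 9.31 and 8.09 with vehicle and 11.6, 10.7 and 11.2 with DOX (0.25 ± 0.13, adjusted p = 0.349, limma). POLR1A was 5.09, 4.74 and 4.91 with vehicle and 5.65, 5.63 and 5.34 with DOX (0.15 ± 0.12, adjusted p = 0.525, limma). In these 3 genes all DOX samples were above all vehicle samples, which was also so for 10.8% of all genes on this scale, and in 0 were they all below, against 9.22% of all genes. The other 6 overlapped, and 0 of the 9 passed the test, as did 0 of all genes, of which 269 had an unadjusted p under 0.05 with the fold. RNA45SN3 was 1.97, 0.583 and 0.151 with vehicle and 4.17, 5.15 and 4.23 with DOX on this scale, higher by 1.65 on the log2 scale. This is a description, since the gene was chosen for its rise.

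**Figure D4:**
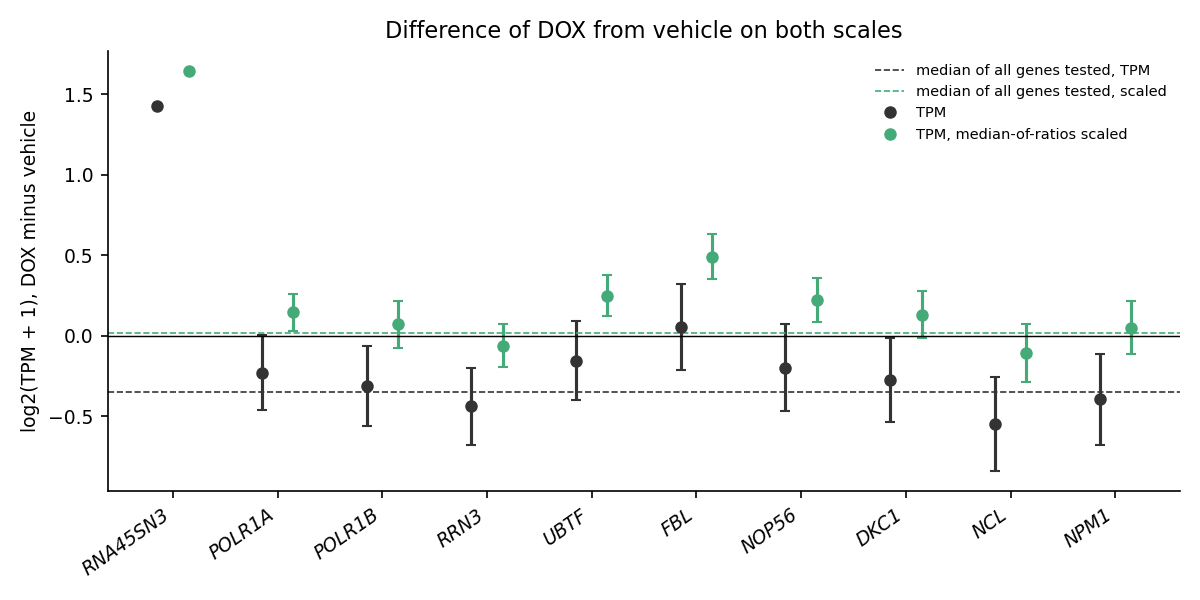
Difference of log2(TPM + 1), DOX minus vehicle (y axis), for the 10 genes (x axis) from TPM (black) and from TPM scaled by the median of ratios (green), with bars of 1 SE for the 9 tested genes and dashed lines at the median of all genes tested. RNA45SN3 stands at 1.43 and 1.65, and the other genes lie between -0.55 and 0.49.

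Ratios within a sample do not depend on the scaling. RNA45SN3 had 0.387, 0.123 and 0.0308 TPM for each TPM of POLR1A with vehicle and 0.739, 0.915 and 0.792 with DOX. For each TPM of RRN3 it had 0.350, 0.0887 and 0.0273 with vehicle and 0.825, 0.797 and 0.786 with DOX. The direction of these ratios follows from the choice of RNA45SN3. Relative to the mean, the DOX samples spread least in the ratio to RRN3 (0.803 ± 0.0197, SD, n = 3) and more in those to UBTF (0.407 ± 0.0653), FBL (0.0927 ± 0.0145) and NCL (0.0444 ± 0.00671). Only 6 ratios among the 9 genes were computed, for pairs picked without a set rule, and these 6 overlapped between the groups. The remaining pairs were not computed, so it is not known from these 6 whether some of them separate the groups. FBL to NCL was 0.316 ± 0.0503 with vehicle and 0.494 ± 0.144 with DOX, NPM1 to NCL was 2.01 ± 0.184 and 2.25 ± 0.288, and POLR1A to POLR1B was 0.748 ± 0.0760 and 0.804 ± 0.146 (SD, n = 3).

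By mean TPM over the 6 samples, the order was NPM1 (236), NCL (113), FBL (41.7), NOP56 (18), DKC1 (11.5), UBTF (10.3), POLR1B (7.08), RRN3 (6.01), POLR1A (5.35) and RNA45SN3 (2.49). The abundant nucleolar proteins were thus at the top and the Pol I machinery at the bottom. NPM1 was above NCL, NCL above FBL and FBL above NOP56 in 6 of 6 samples. DKC1 and UBTF, which differed by 1.11 times, were not separated, with DKC1 higher in 4 of 6 samples and overlapping ranges in both groups. POLR1B was above RRN3 in 6 of 6 samples and RRN3 above POLR1A in 5 of 6, although the ranges of these neighbours overlapped in both groups. RNA45SN3 was under POLR1A in 6 of 6 samples, but its range was apart from that of POLR1A with vehicle only. Its level per length rests on a gene length that may not match the annotation. The 9 genes had from 208 to 30644 reads in a sample.

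The rest of the pathway was followed in 8 lists of genes for ribosome biogenesis, without the 10 genes above. Of 186 genes listed, 179 passed the minimum of 1 TPM. None was called lower and none higher (0 and 0 of 179, limma), beside 2.98% and 0.0257% of all genes, and 17 (9.50%) had an unadjusted p under 0.05 with the fold, all lower, against 19.0% of all genes. Their median log2 difference was -0.28 in TPM, beside -0.35 for all genes, and 0.10 against 0.02 after scaling by the median of ratios. In 8 of the 179, or 4.47%, all DOX samples were below all vehicle samples, against 30.7% of all genes, and in 0 were they all above. After scaling by the median of ratios, 3 (1.68%) were below and 33 (18.4%) above, against 9.22% and 10.8% of all genes. With the replicate block 17 of the 179 (9.50%) were called lower, against 19.0% of all genes. Without DOX replicate 2 there were 30 (16.8%, against 20.2%) and without vehicle replicate 1 there were 5 (2.79%, against 10.8%).

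In the Pol I lists, the named genes did not pass the test. The 10 other Pol I subunits tested had a median log2 difference of -0.20 in TPM and 0.22 after scaling. TWISTNB, also named POLR1F, averaged 13.4 ± 3.30 TPM with vehicle against 8.72 ± 3.29 TPM with DOX (log2 difference -0.61, adjusted p = 0.131, limma). POLR2K, a small subunit shared by the 3 nuclear RNA polymerases, had 57.4 ± 12.6 and 43.2 ± 14.5 TPM (-0.44, adjusted p = 0.282, limma). The 6 initiation and termination factors had a median of -0.38, and after scaling -0.01. TAF1B, of the promoter selectivity factor SL1, had 10.7 ± 2.08 and 7.39 ± 2.44 TPM (-0.51, adjusted p = 0.179, limma), and TAF1D, of the same factor, had 69.9 ± 15.4 and 49.4 ± 19.9 TPM (-0.55, adjusted p = 0.196, limma). The 12 rDNA chromatin genes had a median of -0.27. ERCC6, a chromatin remodeler of transcription-coupled repair, was below all vehicle samples in all DOX samples, with 2.15 ± 0.459 and 1.15 ± 0.472 TPM (-0.56, adjusted p = 0.0790, limma). SMARCA5, the ATPase of the nucleolar remodeling complex NoRC, had 42.4 ± 6.90 and 26.5 ± 10.1 TPM (-0.72, adjusted p = 0.104, limma).

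In the processing lists, the 12 snoRNP genes had a median log2 difference of -0.17 in TPM and 0.19 after scaling. ZNHIT6, a factor of box C/D snoRNP assembly, averaged 6.73 ± 1.35 TPM with vehicle against 4.47 ± 2.24 TPM with DOX (-0.56, adjusted p = 0.133, limma), and GAR1, a core protein of box H/ACA snoRNPs, had 19.0 ± 9.17 and 12.7 ± 4.74 TPM (-0.51, adjusted p = 0.220, limma). The 54 genes of the small subunit processome had a median of -0.33. UTP23 had 8.35 ± 2.42 and 4.72 ± 2.82 TPM (-0.79, adjusted p = 0.0703, limma), and KRR1 had 27.2 ± 5.57 and 16.3 ± 6.59 TPM (-0.76, adjusted p = 0.0866, limma). Both act in the early assembly of the small subunit. The 24 exosome and nuclease genes had a median of -0.26. In TPM 24 of 24 differences were below 0 and after scaling 6, beside 10867 and 5529 of all 11672 genes tested. ERI1, an exonuclease that trims 5.8S rRNA and acts on histone mRNA, had 24.5 ± 4.55 and 14.5 ± 5.05 TPM without overlap (-0.75, adjusted p = 0.0827, limma). DIS3, a catalytic subunit of the exosome, had 10.2 ± 1.96 and 6.16 ± 2.55 TPM (-0.69, adjusted p = 0.0871, limma).

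In the assembly lists, the 52 large subunit genes had a median log2 difference of -0.25 in TPM and 0.11 after scaling. RRP15 averaged 6.04 ± 1.5 TPM with vehicle against 3.36 ± 1.73 TPM with DOX (-0.75, adjusted p = 0.0662, limma), and TMA16 had 7.01 ± 1.81 and 4.33 ± 2.02 TPM (-0.63, adjusted p = 0.106, limma). Both belong to early particles of the large subunit. The 9 further abundant nucleolar proteins had a median of -0.25. NOL8 had 5.75 ± 0.993 and 3.58 ± 2.02 TPM (-0.64, adjusted p = 0.0963, limma). DDX21, a nucleolar RNA helicase, had 53.8 ± 9.91 and 39.6 ± 17.4 TPM (-0.51, adjusted p = 0.224, limma). The 16 genes named from the 8 lists were picked by the lowest p in TPM, where most genes are below 0, so that their shared direction is fixed in part by the choice. Of all 179 genes, 156 were below 0 in TPM and 56 after scaling, beside 10867 and 5529 of all 11672 genes tested.

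**Figure D5:**
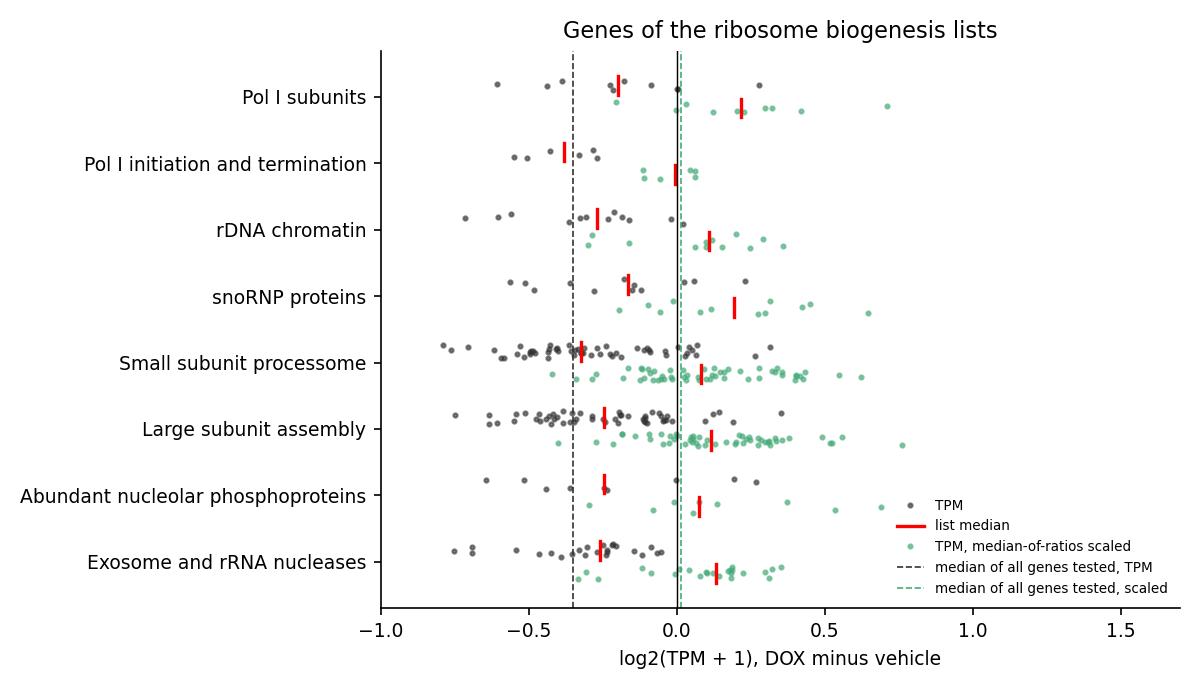
Difference of log2(TPM + 1), DOX minus vehicle (x axis), for each tested gene (points) of 8 ribosome biogenesis lists (y axis), from TPM (black) and from TPM scaled by the median of ratios (green), with list medians in red and medians of all genes tested as dashed lines. List medians lie between -0.38 and -0.17 in TPM and between -0.01 and 0.22 after scaling.

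The 5 genes whose profile over the 6 samples was nearest to that of RNA45SN3 were HIST2H2AB, LOC105376306, HIST1H2AH, CRIP1 and HIST1H2AK. Likeness was measured as the root mean square difference of log2(TPM + 1) after centring, which was 0.325, 0.338, 0.378, 0.385 and 0.387, against a median of 1.03 for all genes tested. The 5 were picked for the smallest differences, so that lying under the median is fixed by the pick. Since RNA45SN3 was chosen for its rise, their higher DOX values and likeness between vehicle samples also follow in part from the pick. HIST2H2AB, a histone H2A gene, had 54.1, 19.2 and 18.7 TPM with vehicle and 50.8, 62.4 and 46.5 TPM with DOX. As for RNA45SN3, vehicle replicate 1 was the highest vehicle sample. HIST1H2AH, another H2A gene, had 45.8, 22.5 and 28.2 TPM with vehicle and 50.2, 79.3 and 48.8 TPM with DOX. CRIP1, a LIM domain protein, had 2.4, 3.01 and 0.924 TPM with vehicle and 4.13, 6.66 and 8.18 TPM with DOX.

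RNAs that are made without a poly(A) tail were followed because the 45S precursor is mostly of this kind. Of 14 such RNAs that were tested (small RNAs and replication-dependent histone mRNAs), 0 were called in either direction, against 2.98% and 0.0257% of all genes called lower and higher. In 3 of the 14 all DOX samples were above all vehicle samples in TPM, and in 8 after scaling, against 0.223% and 10.8% of all genes. Their median was 0.20 in TPM and 0.64 after scaling, beside -0.35 and 0.02 for all genes. RN7SL2, the RNA of the signal recognition particle, had the lowest p of the list, with a log2 difference of 0.43 (adjusted p = 0.0432, limma) under the fold of 1.5, and RN7SL1 differed by 0.27 (adjusted p = 0.0663, limma). TERC, the telomerase RNA, had the largest TPM difference of the 14 (0.61). It had 24.0, 11.8 and 22.7 TPM with vehicle and 27.8, 25.3 and 34.3 TPM with DOX, without overlap. In TPM 3 of the 14 were below 0, RN7SK (-0.23), HIST1H1C (-0.21) and RPPH1 (-0.094), and after scaling 0 were. Of all 11672 genes tested, 10867 were below 0 in TPM and 5529 after scaling. The long nuclear RNAs NEAT1 and MALAT1 were listed apart from the 14. Whether they carry a poly(A) tail was not examined, so they are no contrast to the list. In TPM both were lower after DOX, with log2 differences of -1.53 for NEAT1 (adjusted p = 0.00293, limma) and -1.29 for MALAT1 (adjusted p = 0.00185, limma). After scaling, where 0 of all genes passed the test, the differences were -1.10 and -0.85 (adjusted p = 0.0917 and 0.262, limma), and all DOX samples were still below all vehicle samples for both. The part of RNA selection or library composition in the RNA45SN3 difference was not tested.

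Markers of the cell line were checked as well. All 6 epithelial markers were above 1 TPM in at least 1 sample, with summed levels of 359 to 527 TPM with vehicle and 436 to 470 TPM with DOX. EPCAM averaged 19.4 ± 2.09 TPM with vehicle against 11.4 ± 2.64 TPM with DOX (log2 difference -0.73, adjusted p = 0.0774, limma), and CDH1 averaged 11.3 ± 2.06 against 6.96 ± 2.03 TPM (-0.64, adjusted p = 0.0986, limma). For both, the groups were apart in TPM with DOX lower, as they were for 30.7% of all genes tested. These 2 markers were named for the lowest p in TPM, where 3 of the 6 were below 0, beside 10867 of all 11672 genes tested. After scaling the differences of EPCAM and CDH1 were -0.32 and -0.24, and only these 2 were below 0, beside 5529 of all genes tested. On that scale 1 of the 6 was apart with DOX lower, against 9.22% of all genes. Another 3 were apart with DOX higher, against 10.8%. The median of the 6 was -0.0035 in TPM and 0.44 after scaling. None of the leukocyte, endothelial or fibroblast markers reached 1 TPM (0 of 3 in each list), and their summed levels were at most 0.0167, 0.0597 and 0.616 TPM.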

How the data were processed

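Total RNA from 3 vehicle and 3 DOX samples of DU-145/tet-XISTshRNA cells was sequenced from stranded mRNA libraries, grouped here by the treatment labels. The authors used STAR for alignment to GRCh38, and their deposited file holds TPM per gene symbol, which gives a share of each sample and no depth. The authors also deposited a DESeq2 table for DOX against vehicle. Its mean of normalized counts, a signal over all samples deposited by the authors, was used to recover reads, and its fold changes and p-values were not used. The counting tool, its handling of overlapping and repeated genes, and tool versions are not given in the sources used here. The paper's methods and the labels name different RNA isolation reagents.

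DOX was compared with vehicle by limma 3.58.1 (R 4.3.3) on log2(TPM + 1) for the 11672 genes with a mean of at least 1 TPM, with a variance trend, no block and two-sided p-values adjusted by the Benjamini-Hochberg method over all genes tested. Calls required an adjusted p under 0.05 with a fold over 1.5. Size factors and gene lengths were solved from TPM and those means, and 99.8% of recovered values of up to 10 reads fell within 0.1 of a whole number, against 20% by chance. From 5452783 to 64575038 reads were counted on genes per sample with vehicle or DOX, and the smallest library limits precision for low genes. Identical values were found in 0 pairs of samples. Fits and read recovery were tested on simulated data. Same-numbered vehicle and DOX samples deviated together from their group means across genes (r = 0.57, 0.24 and 0.21 for numbers 1, 2 and 3). After GC and length correction r was 0.19, 0.017 and 0.17. For the replicate block, run as an alternative, the numbers were taken to pair the samples, on the first correlations alone. The main fit had no block, so its p-values ignore any pairing. Alternatives were another pseudocount, no filter, 2 other scalings, no variance trend, the replicate block, correction for GC content and length, voom on recovered reads, and leaving out each sample.

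The 10 genes and the gene lists were chosen with earlier results of these data known. One marker list is not reported here. All 10 were reported, with the other rRNA copies, the 2 genes of lowest p from each list (or up to 4 called ones) and the 5 nearest profiles to RNA45SN3. TERC and the 3 non-polyadenylated RNAs below 0 in TPM were named outside this rule. Coordinates and copies of rRNA genes are from RefSeq (GRCh38.p14) and their sequence from hg38. GC content and exonic length are from GENCODE v44, which matched 93.0% of the genes tested. Tables and figures were made with Python 3.11.15, pandas 2.3.3, NumPy 2.4.6, SciPy 1.17.1, Biopython 1.88 and matplotlib 3.10.9.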

Additional observations from a re-analysis of the deposited data

Results flagged for a closer look

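In the deposited table of means, 4 RNAs of the non-polyadenylated list had a mean above 3 and no row in the TPM table, so they entered no comparison here. These are the authors' means of normalized counts over all 6 samples and give no groups. RMRP, the RNA of the RNase MRP particle that cuts the rRNA precursor in ITS1, had a mean of 11639. SNORD3A, the U3 small nucleolar RNA that guides processing of 18S rRNA, had a mean of 847. RNU12 had a mean of 37.1 and RNU4ATAC had a mean of 9.17, and both are RNAs of the minor spliceosome. Groups of 3 samples are too small for the test of single outlying samples, which was not run.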

How the results depend on the processing

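The number of genes called lower by DOX (348) became 46 with a pseudocount of 0.1, 8 without the variance trend, 2217 with the replicate block and 1 with voom on recovered reads. It was 0 without the filter on low values, after median-of-ratios scaling, without the 5 small RNAs and after GC and length correction, with or without the block where both were run. The number called higher (3) became 15 with the replicate block and 161 with voom and the block. Apart from leaving out single samples, it was 0 under the other settings that moved it. Leaving out single samples gave 0 to 2363 genes lower and 0 to 25 higher. In the wider lists 17 of 179 genes (9.5%) were called lower with the replicate block, against 19.0% of all genes. Without single samples 0 to 30 were called lower, the most without DOX replicate 2 (16.8%, against 20.2%). With voom and the block 7 of 179 (3.91%) were called higher, against 161 of all 11672 genes. Among the 9 members 0 to 1 were called lower without single samples, and the block changed no call among them. NCL had an adjusted p of 0.0259 with the block (limma), and FBL 0.0188 with voom and the block (limma), both under the fold of 1.5. Even with the fold required, 19.0% of all genes were lower in the first fit and 161 of 11672 were higher in the second. The shares of all genes without the fold are not given here, so nothing is read from these 2 values.

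Median-of-ratios scaling, alike with and without the block, turned the difference above 0 for POLR1A (0.15), POLR1B (0.071), UBTF (0.25), NOP56 (0.22), DKC1 (0.13) and NPM1 (0.049). Without the 5 small RNAs it was above 0 for POLR1A (0.080), UBTF (0.18), NOP56 (0.14) and DKC1 (0.051). GC and length correction, alike with and without the block, gave 0.14 for POLR1A, 0.15 for POLR1B, 0.060 for RRN3, 0.030 for UBTF, 0.039 for NOP56, 0.18 for DKC1 and 0.18 for NPM1. Voom without and with the block gave 0.17 and 0.17 for POLR1A, 0.054 and 0.075 for POLR1B, 0.25 and 0.24 for UBTF, 0.24 and 0.26 for NOP56, 0.12 and 0.13 for DKC1, and 0.040 and 0.041 for NPM1. FBL was below 0 (-0.046) without DOX replicate 2. The cause was not tested. For RNA45SN3, which was chosen for its rise in these samples, the difference was 1.13 to 2.59 over the 17 alternatives, which is no support for its direction. Depth limits the vehicle value of RNA45SN3, which rests on 16 reads in replicate 3, and with 3 samples against 3 small differences of the 9 members may go undetected.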
